A study of Rattus norvegicus with 12 samples.

Results

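Tnf and 8 genes of the NF-kappaB feedback loop were followed through the lungs of rats with left heart failure, with and without the mast cell stabilizer ketotifen. The genes were Tnf, Nfkbia, Tnfaip3, Nfkbiz, Nfkb1, Nfkb2, Relb, Bcl3 and Birc3, and every probe set (the group of short probes that reads 1 transcript on the array) whose platform gene symbol was among them was taken. There were 13 such probe sets among 31099 on the array, and all 9 genes had at least 1. The rule uses names and no measured values, but the genes were proposed with earlier results of these arrays known.

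RNA came from the whole lung of age-matched male Sprague-Dawley rats, 12 in all, with 1 Affymetrix rat genome array per lung and 3 lungs in each of 4 groups. The groups were CHF ketotifen, CHF placebo, sham ketotifen and sham placebo. Congestive heart failure (CHF) had been induced in juvenile rats by a band placed on the supracoronary aorta, which per the design text leads to failure of the left heart, with its ejection fraction preserved, and to secondary pulmonary hypertension. No gene was altered in any group. Sham rats had the operation without the clip. Ketotifen was given at 1 mg per kg body weight per day in the drinking water, from day 1 after banding, and lungs were taken 9 weeks after surgery. The arm called placebo in the sample labels is called untreated in the design text of the series. The design text describes the lungs of a group as separate rats, so the spread within a group is taken as the spread between animals. For CHF ketotifen arrays 1 and 3 this is in doubt, as described below.

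NF-kappaB is a family of transcription factors that is held inactive in the cytoplasm by inhibitor proteins of the I-kappaB class. Ligands such as TNF, the cytokine encoded by Tnf, bind receptors that activate the IKK kinases, the inhibitor is degraded, and NF-kappaB enters the nucleus and switches on inflammatory genes. Among these target genes are its own inhibitors and subunits, which is why the genes are described as a feedback loop. In the lung, alveolar macrophages, endothelium and epithelium are all known to run this response. Nfkbia encodes the inhibitor I-kappaB-alpha, and Tnfaip3 encodes an ubiquitin-editing enzyme that shuts down the signal upstream of IKK. Nfkbiz and Bcl3 encode I-kappaB proteins of the nucleus that act on NF-kappaB already bound to DNA. Nfkb1, Nfkb2 and Relb encode subunits, Nfkb1 of the canonical and Nfkb2 with Relb of the non-canonical arm. Birc3 encodes an inhibitor-of-apoptosis ubiquitin ligase of the TNF receptor complex.

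Promoters of 7 of the 9 genes, all but Relb and Birc3, were matched in the RefSeq table of the rat build GRCr8, which gives 250 bases before to 50 bases after each gene's start. They were searched on both strands for the kappaB consensus, a motif of 10 letters that NF-kappaB binds. A match was present in 6 of 7 promoters (85.7%), compared with 2515 of 33469 promoters in the table (7.51%). The consensus and the other pattern searched, TATAAA, did not overlap in these promoters. The 7 promoters belong to genes studied for this pathway, so these shares are a description, and a match is a run of letters, not a site shown to be bound. Shown are the promoters with no match in this window (Tnf), with 1 match in a gene that differed in none of the comparisons (Nfkbia), with 3 matches (Tnfaip3), and of the nuclear inhibitors whose response to the drug differed between CHF and sham lungs (Nfkbiz and Bcl3). Each runs 5′ to 3′ on the strand of its gene, in lower case with kappaB consensus windows in capitals. The windows are chr20:3626435-3626734 on the plus strand for Tnf, chr6:78597023-78597322 on the minus strand for Nfkbia, chr1:15543930-15544229 on the minus strand for Tnfaip3, chr11:58251471-58251770 on the plus strand for Nfkbiz and chr1:88613506-88613805 on the minus strand for Bcl3.
Tnf: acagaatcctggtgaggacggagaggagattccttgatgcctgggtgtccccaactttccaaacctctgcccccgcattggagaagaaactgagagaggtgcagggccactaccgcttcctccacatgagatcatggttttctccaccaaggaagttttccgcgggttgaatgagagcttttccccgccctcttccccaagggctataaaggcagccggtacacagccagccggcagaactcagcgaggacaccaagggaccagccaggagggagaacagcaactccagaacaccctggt
Nfkbia: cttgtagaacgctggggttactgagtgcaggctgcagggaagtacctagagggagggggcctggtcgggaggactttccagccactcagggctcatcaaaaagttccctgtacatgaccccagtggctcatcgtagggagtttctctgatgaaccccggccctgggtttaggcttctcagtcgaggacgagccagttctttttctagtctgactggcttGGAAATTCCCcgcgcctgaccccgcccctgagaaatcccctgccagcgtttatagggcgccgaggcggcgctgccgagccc
Tnfaip3: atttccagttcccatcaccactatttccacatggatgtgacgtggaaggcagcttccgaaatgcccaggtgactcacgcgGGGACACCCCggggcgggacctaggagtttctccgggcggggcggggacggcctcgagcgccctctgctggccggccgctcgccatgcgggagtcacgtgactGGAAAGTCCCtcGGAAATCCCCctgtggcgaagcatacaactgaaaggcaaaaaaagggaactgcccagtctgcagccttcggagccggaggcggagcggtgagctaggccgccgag
Nfkbiz: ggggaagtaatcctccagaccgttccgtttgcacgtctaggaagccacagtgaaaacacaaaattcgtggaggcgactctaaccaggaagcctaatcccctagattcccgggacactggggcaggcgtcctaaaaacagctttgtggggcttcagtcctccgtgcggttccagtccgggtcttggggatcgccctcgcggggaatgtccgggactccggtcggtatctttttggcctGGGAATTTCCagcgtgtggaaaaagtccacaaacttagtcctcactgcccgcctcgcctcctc
Bcl3: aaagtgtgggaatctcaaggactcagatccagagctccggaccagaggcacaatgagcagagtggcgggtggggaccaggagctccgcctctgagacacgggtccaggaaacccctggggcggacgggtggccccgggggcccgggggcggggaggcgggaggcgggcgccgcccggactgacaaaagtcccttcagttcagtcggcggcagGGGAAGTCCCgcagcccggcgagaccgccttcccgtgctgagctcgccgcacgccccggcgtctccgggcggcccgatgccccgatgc

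Positions count from the annotated start, with the first base of the gene as 1 and the base before it as -1. The 3 windows of Tnfaip3 began at -170, -67 and -55. Nfkbia had its window at -31 to -22, Nfkbiz at -13 to -4, Bcl3 at -38 to -29 and Nfkb2 at -20 to -11, and Nfkb1 at 4 to 13. The pattern TATAAA, on either strand, was in 2 of 7 promoters (28.6%), those of Tnf and Nfkbia, compared with 4760 of all promoters (14.2%). In Tnf it lay at -46 to -41 on the strand of the gene. In Nfkbia it lay after the start, at 18 to 23, on the opposite strand.

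**Figure D1:**
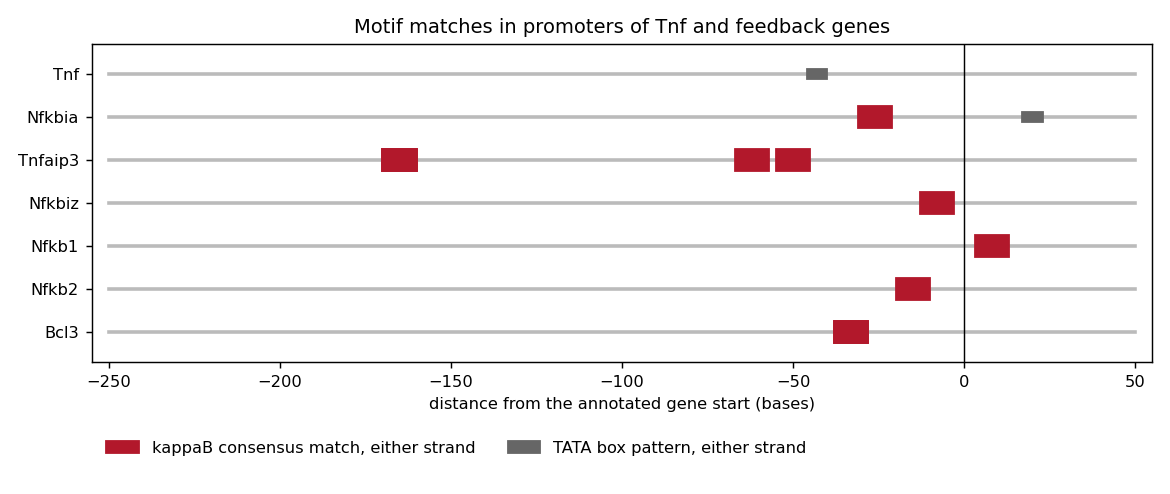
Positions of kappaB consensus and TATAAA pattern matches (boxes, either strand) in the 7 promoters, by distance in bases from the annotated gene start, with the gene body to the right of 0. Tnfaip3 has 3 kappaB matches, Tnf has 0, and each other gene has 1.

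Expression is given as the deposited log2 value of a probe set, made with GCRMA, which removes a background modelled from probe sequence and flattens values near background, at about 2 to 4. A probe set was tested if it reached a log2 value of at least 4 in at least 3 arrays, which 16536 probe sets did. Among the 13 probe sets of these genes 9 passed, 1 for each gene. The other 4 lay near background: a second probe set of Tnf reached 5.25 in CHF ketotifen lung 2 and lay between 2.25 and 2.82 in the other lungs, a second probe set of Nfkbiz lay between 1.65 and 1.76, and 2 further ones of Bcl3 lay between 2.04 and 2.37 and between 1.20 and 1.29. These dim probe sets therefore gave no independent measure of their genes, except for the Tnf signal in that single lung.

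The arrays were alike in overall signal, with 15809 to 16056 probe sets at 4 or more and medians of 7.09 to 7.28 over the tested probe sets. Precision is limited by having 3 arrays a group. Lung-defining genes (surfactant proteins and others, 7 on the array) averaged 13.37 to 13.97 in all lungs. Within that list the endothelial gene Vwf, named after its values were seen, was lower in CHF ketotifen than in sham ketotifen lungs (-1.55 ± 0.36, limma adjusted p = 0.0225), and its difference from CHF placebo lungs was -0.99 ± 0.36 (adjusted p = 0.196). Pecam1, also an endothelial gene of the list, was not called, at -0.15 ± 0.19 (adjusted p = 0.611) and 0.25 ± 0.19 (adjusted p = 0.523). CHF ketotifen arrays 1 and 3 were the closest pair of all (SD of the difference 0.258, next pair 0.397). Their values were not identical and both entered as samples, but the files do not settle whether they are separate rats, and if not, that group has 2 samples. With the pair averaged, calls over all tested probe sets for CHF ketotifen against CHF placebo lungs were 88 in place of 201, Tnfaip3, Nfkbiz, Bcl3 and Birc3 kept their calls, and those of Tnfrsf1a and Litaf were lost (adjusted p = 0.0523 and 0.0726). Actin 3′ minus 5′ control signal, a measure of RNA degradation that is higher in degraded RNA, was 3.90 to 4.52 in sham placebo lungs 2 and 3 and sham ketotifen lung 2 and 2.90 to 3.45 in the other 9. Cardiomyocyte markers averaged 5.19 to 7.89 in 3 sham lungs and at most 2.73 in the other 9.

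The CHF ketotifen lungs stood apart from the other 3 groups for most of these genes. Calls below are those with an adjusted p (Benjamini-Hochberg, over all tested probe sets) under 0.05 (limma, a linear model with a spread shared across probe sets, fitted to the 12 arrays at once). Compared with CHF placebo lungs, CHF ketotifen lungs had 4 of 9 genes called higher (Tnfaip3, Nfkbiz, Bcl3 and Birc3) and 0 lower, against 1.22% of all tested probe sets called in either direction and 0.822% called higher. For 8 of the 9, all but Nfkbia, the 3 CHF ketotifen lungs lay above the 3 CHF placebo lungs without overlap, which held for 9.86% of all tested probe sets. Compared with sham ketotifen lungs, CHF ketotifen lungs had 7 of 9 genes called higher, all but Nfkbia and Relb, against 13.0% of tested probe sets called in either direction and 6.36% called higher. The same 8 of 9 did not overlap, against 19.2% of tested probe sets. Tnf, counted in the 7 and in both counts of 8, passed the filter through the CHF ketotifen lungs alone, so it had to differ. The 2 comparisons use the same 3 CHF ketotifen lungs and are not separate evidence. In whole lung, a change in the number of cells of a type and a change in RNA per cell cannot be told apart.

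Without the drug, heart failure called 0 of the 9 genes. CHF placebo lungs compared with sham placebo lungs gave 28 calls over all tested probe sets (0.169% in either direction, 0.145% higher), and 1 of the 9 genes, Tnfaip3, had an unadjusted p under 0.05, as did 3326 probe sets in all. Tnfaip3 was also the only one of the 9 whose groups did not overlap, which held in the higher direction for 12.7% of tested probe sets. Sham ketotifen lungs compared with sham placebo lungs gave 0 calls among the 9, against 0.0847% of tested probe sets in either direction and 0.0423% higher. Tnfaip3 alone had an unadjusted p under 0.05, as did 2310 probe sets in all. Tnfaip3 and Birc3 did not overlap there, against 7.50% of tested probe sets in the higher direction. The difference between the drug's effect in CHF and in sham lungs, the interaction, was called for Nfkbiz and Bcl3, against 0.369% of tested probe sets in either direction and 0.254% higher.

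These background shares move with single lungs. The 201 calls behind the 1.22% for CHF ketotifen against CHF placebo lungs became 1219 without CHF placebo lung 1. The 28 calls for CHF placebo against sham placebo lungs became 1496 without sham placebo lung 1 and 0 without sham placebo lung 2, and the 14 for sham ketotifen against sham placebo lungs became 722 without sham placebo lung 1. Calls among the 9 genes stayed at 4, 0 and 0 in these fits.

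The median difference of the 9 genes was 1.87 for CHF ketotifen over CHF placebo lungs, compared with -0.04 over all tested probe sets. It was 1.70 for CHF ketotifen over sham ketotifen lungs (-0.03 over all), 0.08 for CHF placebo over sham placebo lungs (0.02 over all) and 0.09 for sham ketotifen over sham placebo lungs (-0.00 over all). Tnf counts among these although it passed the filter through the CHF ketotifen lungs alone, so that it had to differ.

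**Figure D2:**
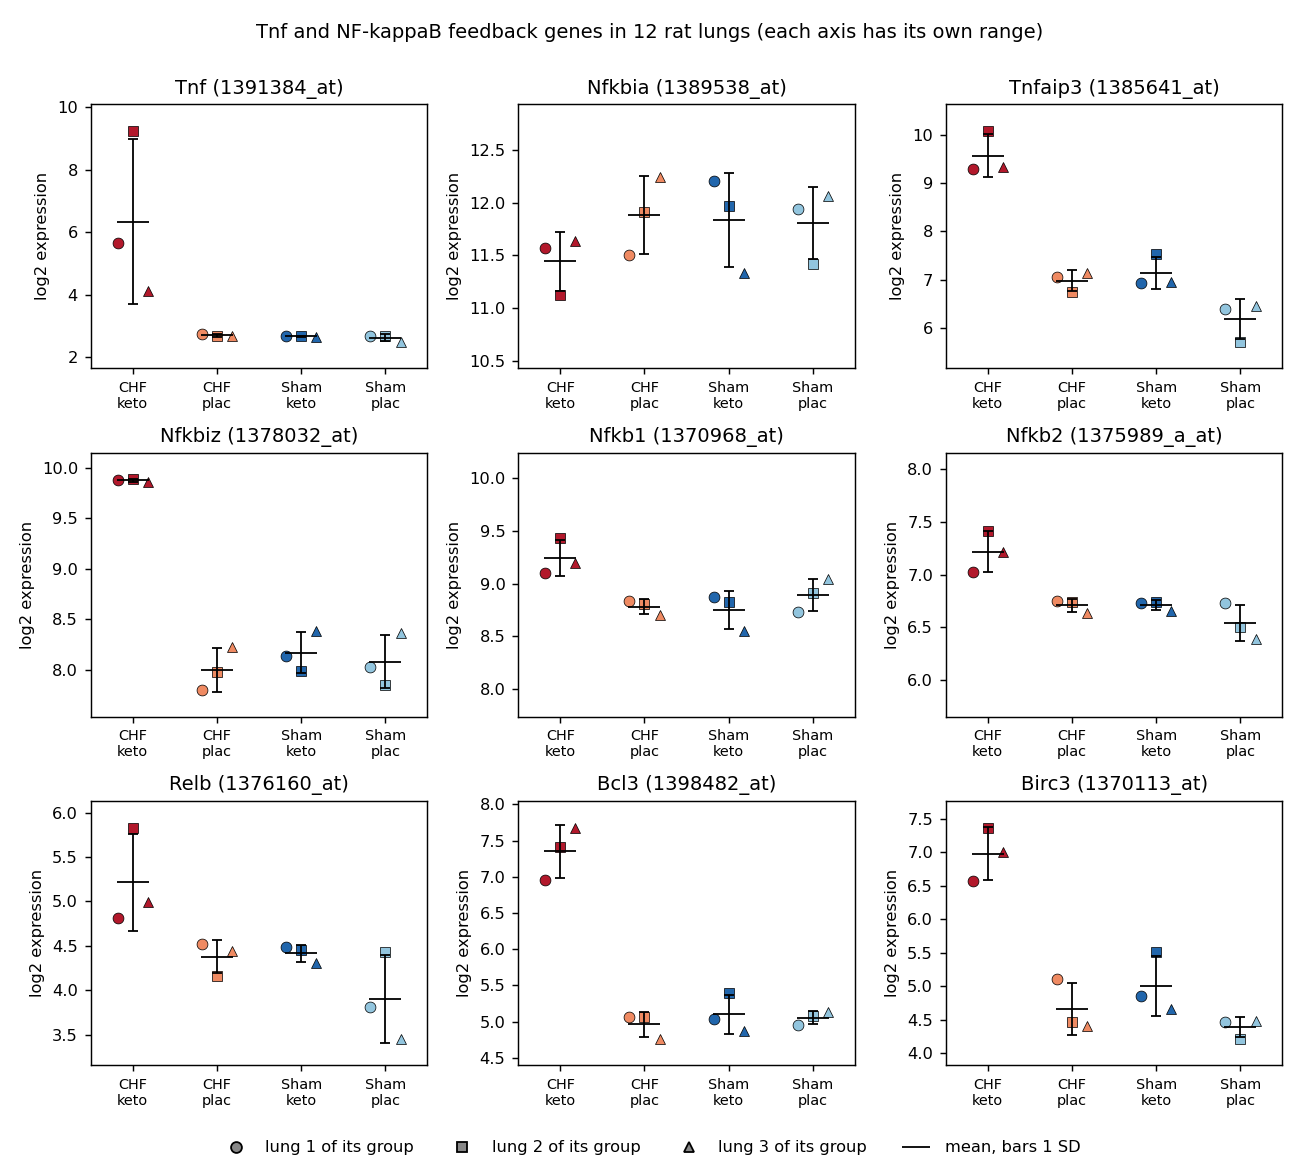
Log2 expression of the 9 genes in each lung (markers, by lung number within its group), with group means and SDs (n = 3). CHF ketotifen lungs lie above all other lungs for Tnf, Tnfaip3, Nfkbiz, Nfkb1, Nfkb2, Relb, Bcl3 and Birc3, and Nfkbia overlaps in all groups.

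Tnf, the ligand, was detected by its tested probe set in the CHF ketotifen lungs only, and to a very different degree in each. Its log2 values were 5.64, 9.25 and 4.13 in CHF ketotifen lungs 1 to 3. They were 2.75, 2.67 and 2.67 in CHF placebo lungs, 2.68, 2.68 and 2.66 in sham ketotifen lungs and 2.69, 2.69 and 2.49 in sham placebo lungs, all near background. CHF ketotifen lung 2 was far above the other lungs of its group, whereas the 9 lungs of the other groups lay within a narrow band. The means were 6.34 ± 2.63 in CHF ketotifen lungs and 2.69 ± 0.05 in CHF placebo lungs (SD, n = 3 each), a log2 difference of 3.65 ± 0.93 (SE) with a 95% interval of 1.60 to 5.69 and a limma adjusted p of 0.0873, which did not pass. Against sham ketotifen lungs (2.67 ± 0.01) the difference of 3.67 ± 0.93 passed (adjusted p = 0.0295). Tnf reached 4 in the CHF ketotifen lungs alone and was tested only through them, so its separation from the other groups was fixed in advance. The SE comes from a spread pooled over 4 groups, 3 of them flat at background, so it understates the spread among the CHF ketotifen lungs, and the fold against background has an uncertain size.

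The call for Tnf moved with single lungs. Without CHF ketotifen lung 2 the difference from CHF placebo lungs was 2.19 (adjusted p = 0.0224), and without CHF ketotifen lung 3 it was 4.75 (adjusted p = 0.0257), both past the threshold. Over all alternatives the adjusted p ran from 0.0224 to 0.280. Against sham ketotifen lungs the call was lost without sham ketotifen lung 1, 2 or 3 (adjusted p = 0.0706, 0.0698 and 0.0724) and without CHF ketotifen lung 1 (adjusted p = 0.0538), within a range of 0.0115 to 0.0997 over all alternatives. With no filter on low values, which tests all probe sets, the adjusted p of Tnf was 0.165 against CHF placebo lungs and 0.0674 against sham ketotifen lungs. By the tested probe set every CHF ketotifen lung lay above every other lung, as the filter required. The size of the difference depended on which lungs were included. The second, dimmer probe set of Tnf read 2.30, 5.25 and 2.82 in CHF ketotifen lungs 1 to 3. It was thus clear of background in lung 2 alone, and lung 1 lay under CHF placebo lung 1 (2.31).

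Nfkbia, the inhibitor that is degraded when the pathway is activated and then made again, showed no such separation. Log2 values were 11.57, 11.12 and 11.63 in CHF ketotifen lungs and 11.50, 11.91 and 12.24 in CHF placebo lungs. They were 12.20, 11.96 and 11.34 in sham ketotifen lungs and 11.94, 11.41 and 12.06 in sham placebo lungs. All 4 groups overlapped, and CHF ketotifen lungs were on average the lowest. The difference of CHF ketotifen from CHF placebo lungs was -0.44 ± 0.27 (adjusted p = 0.425, 95% interval -1.03 to 0.14), so a difference above 0.14 in the direction of the other genes lay outside the interval. Against sham ketotifen lungs it was -0.39 ± 0.27 (adjusted p = 0.34).

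Tnfaip3, the ubiquitin-editing brake, was 6.01-fold higher in CHF ketotifen than in CHF placebo lungs. Its log2 values were 9.29, 10.09 and 9.33 in CHF ketotifen lungs and 7.06, 6.74 and 7.15 in CHF placebo lungs. They were 6.93, 7.52 and 6.96 in sham ketotifen lungs and 6.38, 5.71 and 6.45 in sham placebo lungs. The CHF ketotifen lungs were clear of all others, CHF placebo and sham ketotifen lungs overlapped each other, and the 3 sham placebo lungs lay below both without overlap. The log2 difference of CHF ketotifen from CHF placebo lungs was 2.59 ± 0.27 (limma adjusted p = 0.000951), and from sham ketotifen lungs 2.43 ± 0.27 (adjusted p = 0.00106). The steps at the low end of the order did not pass: 0.80 ± 0.27 for CHF placebo over sham placebo lungs (adjusted p = 0.159) and 0.95 ± 0.27 for sham ketotifen over sham placebo lungs (adjusted p = 0.227). The interaction was 1.63 ± 0.39 (adjusted p = 0.141).

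Nfkbiz, whose protein switches on a secondary wave of genes such as Il6 from the nucleus, had the most even response. Log2 values were 9.88, 9.88 and 9.85 in CHF ketotifen lungs and 7.80, 7.98 and 8.23 in CHF placebo lungs. They were 8.13, 7.99 and 8.39 in sham ketotifen lungs and 8.02, 7.85 and 8.36 in sham placebo lungs. The CHF ketotifen lungs differed among themselves by an SD of 0.02, and the other 3 groups overlapped. The log2 difference of CHF ketotifen from CHF placebo lungs was 1.87 ± 0.17, a 3.66-fold difference (adjusted p = 0.000266), and from sham ketotifen lungs 1.70 ± 0.17 (adjusted p = 0.000411). In sham rats the drug difference was 0.09 ± 0.17 (adjusted p = 0.843), and the interaction of 1.78 ± 0.24 passed (adjusted p = 0.00964).

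Bcl3, whose protein binds NF-kappaB dimers that lack an activation domain, had a similar pattern. Its log2 values were 6.96, 7.42 and 7.68 in CHF ketotifen lungs and 5.06, 5.07 and 4.77 in CHF placebo lungs. They were 5.04, 5.40 and 4.87 in sham ketotifen lungs and 4.96, 5.07 and 5.13 in sham placebo lungs. The other 9 lungs lay between 4.77 and 5.40 with all groups overlapping, and the lowest CHF ketotifen lung was above the highest of them. The log2 difference of CHF ketotifen from CHF placebo lungs was 2.39 ± 0.21, a 5.23-fold difference (adjusted p = 0.000266), and from sham ketotifen lungs 2.25 ± 0.21 (adjusted p = 0.000329). In sham rats it was 0.05 ± 0.21 (adjusted p = 0.943), and the interaction of 2.34 ± 0.30 passed (adjusted p = 0.00763). The calls of Nfkbiz and Bcl3 in the interaction were lost without the 3 sham arrays of larger 3′ to 5′ difference, at differences of 1.64 and 2.39 (adjusted p = 0.141 and 0.150), where sham placebo was left with 1 lung that the fit assumes to vary like the other groups. Over all alternatives their adjusted p ran from 0.0073 to 0.141 for Nfkbiz and from 0.00613 to 0.150 for Bcl3.

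The subunit genes differed by less. Nfkb1, the precursor of the canonical subunit, had log2 values of 9.10, 9.43 and 9.19 in CHF ketotifen lungs, against 8.83, 8.81 and 8.70 in CHF placebo lungs. It had 8.88, 8.82 and 8.55 in sham ketotifen lungs and 8.73, 8.91 and 9.04 in sham placebo lungs. The CHF ketotifen lungs were above the rest by a small margin, with 9.04 in sham placebo lung 3 just under 9.10 in CHF ketotifen lung 1. The log2 difference of CHF ketotifen from CHF placebo lungs was 0.46 ± 0.14 (adjusted p = 0.127, not passed) and from sham ketotifen lungs 0.49 ± 0.14 (adjusted p = 0.0411).

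Nfkb2, the precursor of the non-canonical subunit, had log2 values of 7.02, 7.42 and 7.22 in CHF ketotifen lungs, against 6.75, 6.74 and 6.64 in CHF placebo lungs. It had 6.73, 6.74 and 6.66 in sham ketotifen lungs and 6.73, 6.50 and 6.39 in sham placebo lungs. All 3 CHF ketotifen lungs lay above every other lung. The differences were 0.51 ± 0.15 from CHF placebo lungs (adjusted p = 0.115, not passed) and 0.51 ± 0.15 from sham ketotifen lungs (adjusted p = 0.0444). The calls of Nfkb1 and Nfkb2 against sham ketotifen lungs were close to the threshold: with 1 of the 12 lungs left out each was called in 3 of 12 fits, those without sham placebo lung 1, sham placebo lung 2 or CHF placebo lung 1, and lost in the 9 others, with adjusted p of up to 0.135 and 0.141.

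Relb, the partner of the Nfkb2 product, had log2 values of 4.81, 5.83 and 5.0 in CHF ketotifen lungs, against 4.53, 4.17 and 4.45 in CHF placebo lungs. It had 4.48, 4.45 and 4.31 in sham ketotifen lungs and 3.81, 4.43 and 3.46 in sham placebo lungs. Again the 3 highest lungs were those of the CHF ketotifen group, but CHF ketotifen lung 2 stood well above lungs 1 and 3. The difference was 0.83 ± 0.30 from CHF placebo lungs (adjusted p = 0.188) and 0.80 ± 0.30 from sham ketotifen lungs (adjusted p = 0.0961), and neither passed.

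Birc3, the ubiquitin ligase that supports survival signalling from the TNF receptor and restrains the non-canonical arm, was 5.0-fold higher in CHF ketotifen than in CHF placebo lungs. Birc3 had log2 values of 6.58, 7.37 and 7.0 in CHF ketotifen lungs and 5.11, 4.47 and 4.41 in CHF placebo lungs. They were 4.85, 5.51 and 4.65 in sham ketotifen lungs and 4.47, 4.22 and 4.48 in sham placebo lungs. The lowest CHF ketotifen lung was above every other lung, and sham ketotifen lungs lay above sham placebo lungs by a small margin. The log2 difference of CHF ketotifen from CHF placebo lungs was 2.32 ± 0.28 (adjusted p = 0.00267) and from sham ketotifen lungs 1.98 ± 0.28 (adjusted p = 0.00348). In sham rats the drug difference of 0.62 ± 0.28 did not pass (adjusted p = 0.365). The interaction of 1.70 ± 0.40 did not pass (adjusted p = 0.139), but it did without CHF placebo lung 1 (1.93, adjusted p = 0.0407), with adjusted p between 0.0407 and 0.402 over all alternatives.

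**Figure D3:**
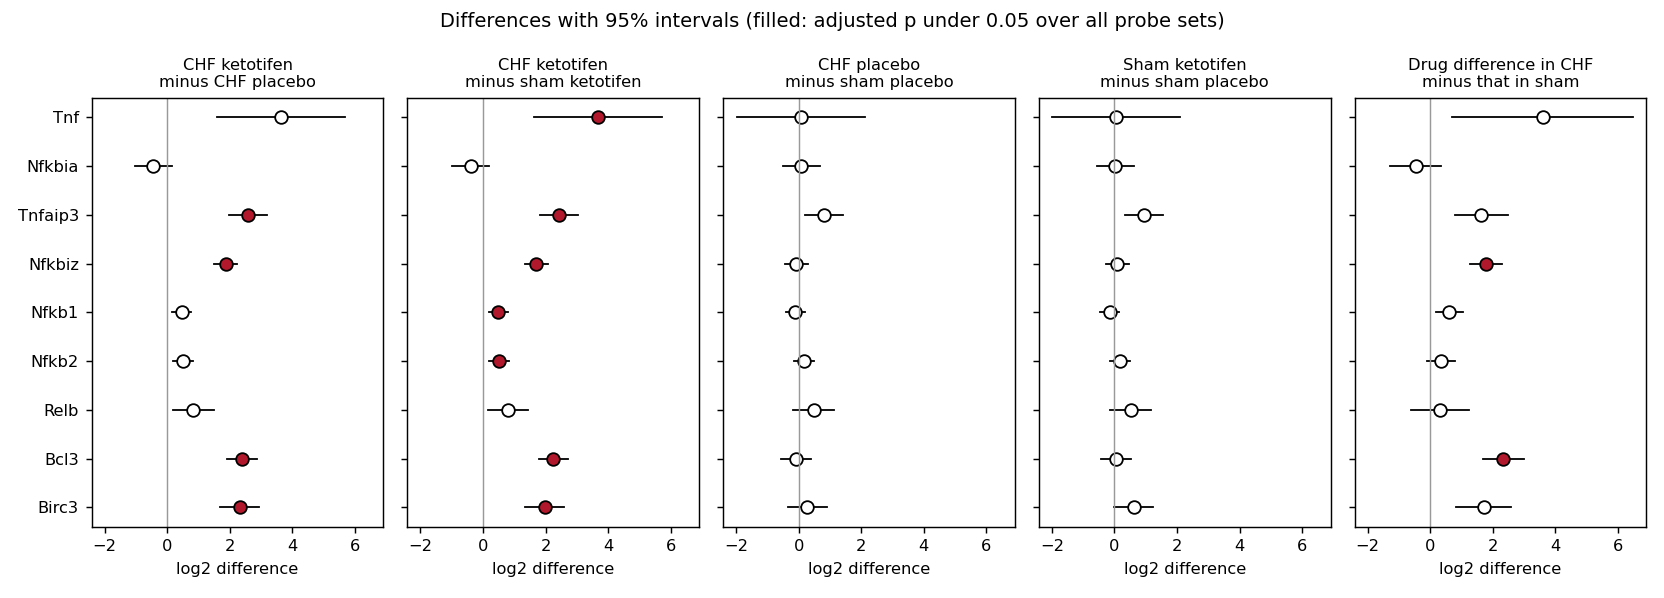
Log2 differences of the 9 genes in each comparison, with 95% intervals from the limma fit; filled points have an adjusted p under 0.05. The 4 genes filled in the first panel lie between 1.87 and 2.59, the intervals of Tnf are the widest, and 0 points are filled for CHF placebo against sham placebo and for sham ketotifen against sham placebo.

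CHF ketotifen lung 2 was the highest of its group for 7 of the 9 genes and the lowest for Nfkbia, and lung 1 was the lowest for 6. Over the 12 lungs, with each gene centred on its own mean, the root-mean-square difference between the log2 profiles of Nfkb1 and Nfkb2 was 0.20. It was 0.30 between Bcl3 and Birc3, 0.36 between Tnfaip3 and Birc3 and 0.38 between Nfkbiz and Bcl3. The farthest pair was Tnf and Nfkbia, at 2.15. This measure of likeness follows both shape and size, and the profiles share the same arrays.

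The other genes with a tested probe set were searched (9731, without symbols starting with LOC, RGD, MGC or AABR). The 3 of most similar profile by the same measure are given for each gene called at least once. The nearest to Tnf were the chemokine gene Ccl3 (0.78), the immediate early gene Egr2 (0.78) and Sele, the endothelial E-selectin (0.80). The nearest to Tnfaip3 were the dendritic cell marker Cd83 (0.36), the cytokine gene Il1b (0.38) and the transcription factor gene Gata5 (0.40). Tnf, with an SD over the 12 lungs of 2.01, was farther from its nearest genes than Tnfaip3 was from its own.

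Nfkbiz was nearest to Zc3h12a, which encodes an RNase that degrades cytokine mRNAs (0.24), the stress-response gene Ier3 (0.25) and Tiparp (0.26). Bcl3 was nearest to Cdca3 (0.24), Depdc1 (0.26) and Itpkc (0.29), and Birc3 to Gata5 (0.29), Tlr2 (0.31) and Cdca3 (0.33). Nfkb1 was nearest to Cdca4 (0.09), Tdg (0.11) and Dnajb12 (0.11), and Nfkb2 to Rbm7 (0.08), Tmem168 (0.10) and Eif3f (0.11). The smaller distances of Nfkb1 and Nfkb2 go with their smaller range, with an SD over the 12 lungs of 0.24 and 0.29, compared with 1.07 for Bcl3 and 1.36 for Tnfaip3.

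The other genes of the pathway were taken from 8 lists ordered by role. These lists share 3 genes between them. Over all tested probe sets 0.822% were called higher over CHF placebo lungs and 6.36% over sham ketotifen lungs. In either direction the shares were 1.22% and 13.0%. Among other subunits and I-kappaB genes, 0 of 4 tested genes passed in CHF ketotifen against CHF placebo lungs or against sham ketotifen lungs. The smallest p values belonged to the nuclear inhibitor gene Nfkbid, with differences of 0.48 ± 0.14 (adjusted p = 0.118) and 0.41 ± 0.14 (adjusted p = 0.0739). Nfkbid reached 4 in the CHF ketotifen lungs alone (4.13 to 4.23, against 3.64 to 3.81 in the other 9), so it was tested only through them and is set against background. In the second comparison Nfkbib followed with 0.40 ± 0.17 (adjusted p = 0.13). Rela, the main activating subunit, named here after its values were seen, differed by 0.02 ± 0.16 and -0.33 ± 0.16 (adjusted p = 0.969 and 0.191). Among IKK and upstream kinases 0 of 8 passed against CHF placebo lungs, with a list median of -0.10. Against sham ketotifen lungs 1 of 8 rose, Map3k8, a kinase held by the Nfkb1 precursor, by 1.41 ± 0.28 (adjusted p = 0.0126), where its difference from CHF placebo lungs was 1.11 ± 0.28 (adjusted p = 0.0829).

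Of 12 TNF receptor and adaptor genes 1 rose in CHF ketotifen over CHF placebo lungs, Tnfrsf1a, the main TNF receptor, which had 9.72, 9.61 and 9.70 in CHF ketotifen lungs and 9.06, 8.68 and 8.54 in CHF placebo lungs. The difference was 0.92 ± 0.14 (adjusted p = 0.00943), and the call was lost without CHF placebo lung 2 (0.88, adjusted p = 0.0632). Against sham ketotifen lungs Tnfrsf1a (0.79 ± 0.14, adjusted p = 0.00805) and the kinase gene Ripk1 (0.48 ± 0.14, adjusted p = 0.0426) rose and the adaptor gene Traf5 fell (-0.78 ± 0.20, adjusted p = 0.0295). With 1 lung left out the calls of Ripk1 and Traf5 held in 3 and 6 of 12 fits, and a dimmer probe set of Ripk1 did not pass (1.32, adjusted p = 0.275). The 12 genes had median differences of 0.23 and 0.32.

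Of 10 genes of the Toll and interleukin-1 receptor arm, which feeds the same IKK kinases, Tlr2 alone rose over CHF placebo lungs, and Tlr2, Cd14 and Myd88 rose over sham ketotifen lungs. Tlr2, a receptor for bacterial lipoproteins, had log2 values of 6.80, 6.83 and 6.85 in CHF ketotifen lungs and 4.90, 4.78 and 4.77 in CHF placebo lungs. It had 4.78, 5.27 and 4.76 in sham ketotifen lungs and 4.76, 3.71 and 4.77 in sham placebo lungs. CHF ketotifen values were even and separate from all others, with a difference from CHF placebo lungs of 2.01 ± 0.27 (adjusted p = 0.00434) and from sham ketotifen lungs of 1.89 ± 0.27 (adjusted p = 0.00331). Cd14, a co-receptor, differed from sham ketotifen lungs by 1.60 ± 0.29 (adjusted p = 0.00862), and the adaptor gene Myd88 by 0.65 ± 0.14 (adjusted p = 0.0195). Cd14 differed from CHF placebo lungs by 1.07 ± 0.29 (adjusted p = 0.0975), a difference that passed without CHF placebo lung 1 (1.48, adjusted p = 0.000902). The call of Myd88 was lost with CHF ketotifen arrays 1 and 3 averaged (adjusted p = 0.0557), without sham ketotifen lung 3 or without any 1 of the CHF ketotifen lungs.

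Other brakes of the pathway, 8 genes tested, had 1 that rose over CHF placebo lungs, Zc3h12a. It had 6.43, 5.92 and 6.30 in CHF ketotifen lungs and 4.59, 4.28 and 4.09 in CHF placebo lungs. The difference was 1.89 ± 0.21 (adjusted p = 0.00118), and from sham ketotifen lungs 1.66 ± 0.21 (adjusted p = 0.00176). Tnip2, a partner of the Tnfaip3 protein, rose over sham ketotifen lungs (0.83 ± 0.22, adjusted p = 0.0349), a call kept in 5 of 12 fits with 1 lung left out. The interaction of Zc3h12a was 1.72 ± 0.29 (adjusted p = 0.0363) and was kept in 3 of these 12. The list had median differences of 0.36 and 0.33.

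Of 9 genes that act on Tnf mRNA or protein, Litaf, a lysosomal membrane protein gene induced by lipopolysaccharide, rose by 1.21 ± 0.21 over CHF placebo lungs (adjusted p = 0.0204) and by 1.68 ± 0.21 over sham ketotifen lungs (adjusted p = 0.00181), and the other 8 did not pass. The call over CHF placebo lungs was lost without CHF placebo lung 2 or 3 or CHF ketotifen lung 1, 2 or 3. Of 9 other ligands of the TNF family on the array 3 were bright enough to test. Of these 0 rose, and Tnfsf10, the death ligand TRAIL, fell against sham ketotifen lungs (-2.40 ± 0.51, adjusted p = 0.0156). That call was lost without sham ketotifen lung 1 or CHF ketotifen lung 1 (adjusted p = 0.0501 and 0.0532). Tnfsf10 differed from CHF placebo lungs by -0.50 ± 0.51 (adjusted p = 0.651).

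Of 25 target genes of the pathway other than the 9, 12 rose over CHF placebo lungs and 14 over sham ketotifen lungs, with 0 lower in either, and medians of 1.37 and 1.89. The other 7 lists together had 4 of 54 genes higher and 0 lower over CHF placebo lungs, and 9 higher and 2 lower over sham ketotifen lungs, and the lists were not tested against each other. Of all tested probe sets 0.822% and 6.36% were called higher in these comparisons, and 1.22% and 13.0% in either direction. Cxcl2 and Sele, counted among the targets, reached a log2 value of 4 in the CHF ketotifen lungs alone, so they had to differ. Cxcl2, a neutrophil-attracting chemokine, had log2 values of 8.47, 8.05 and 7.75 in CHF ketotifen lungs and 2.68, 2.26 and 2.27 in CHF placebo lungs, a difference of 5.69 ± 0.21 (adjusted p = 2.32e-07) from background. Ccl2, a monocyte-attracting chemokine, had 11.23, 11.48 and 10.75 in CHF ketotifen lungs and 6.18, 5.48 and 4.84 in CHF placebo lungs, a difference of 5.65 ± 0.31 (adjusted p = 9.37e-06). For both genes the 3 CHF ketotifen lungs lay above all 9 other lungs. Chemokine genes of the list did not all do so: Ccl5 averaged 8.33 in CHF ketotifen lungs and 9.31 in CHF placebo lungs (named after its values were seen). Cxcl1, close to Cxcl2 in sequence and action, differed by 4.46 ± 0.31 (adjusted p = 3.26e-05), and Ier3 by 1.78 ± 0.15 (adjusted p = 0.000135). Without the sham arrays in the fit the count over CHF placebo lungs was 6 in place of 12.

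The interaction was called higher for 6 of the 25 target genes, namely Cxcl2, Ccl2, Cxcl1, Ier3 and, named after their values were seen, Il6 (7.41 ± 0.95, adjusted p = 0.00763) and the prostaglandin synthase gene Ptgs2 (4.09 ± 0.65, adjusted p = 0.0258). Over all tested probe sets the share called higher in the interaction was 0.254%. Il6 rose over CHF placebo lungs by 7.42 ± 0.67 (adjusted p = 0.0003) and Ptgs2 by 4.15 ± 0.46 (adjusted p = 0.00127). Il6 lay near background in 8 of the 9 other lungs and at 5.73 in CHF placebo lung 1, so the size of its difference is uncertain, and it ran from 6.88 to 8.50 with 1 lung left out. The interaction call of Ptgs2 was lost without sham placebo lung 3, CHF placebo lung 2, sham ketotifen lung 1 or 2, or CHF ketotifen lung 1 or 3. Without the 3 sham arrays of larger 3′ to 5′ difference the count for the interaction was 1. Icam1, an adhesion molecule gene named after its values were seen, passed in neither comparison, with differences of 0.37 ± 0.46 from CHF placebo lungs (adjusted p = 0.73) and 0.06 ± 0.46 from sham ketotifen lungs (adjusted p = 0.95).

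**Figure D4:**
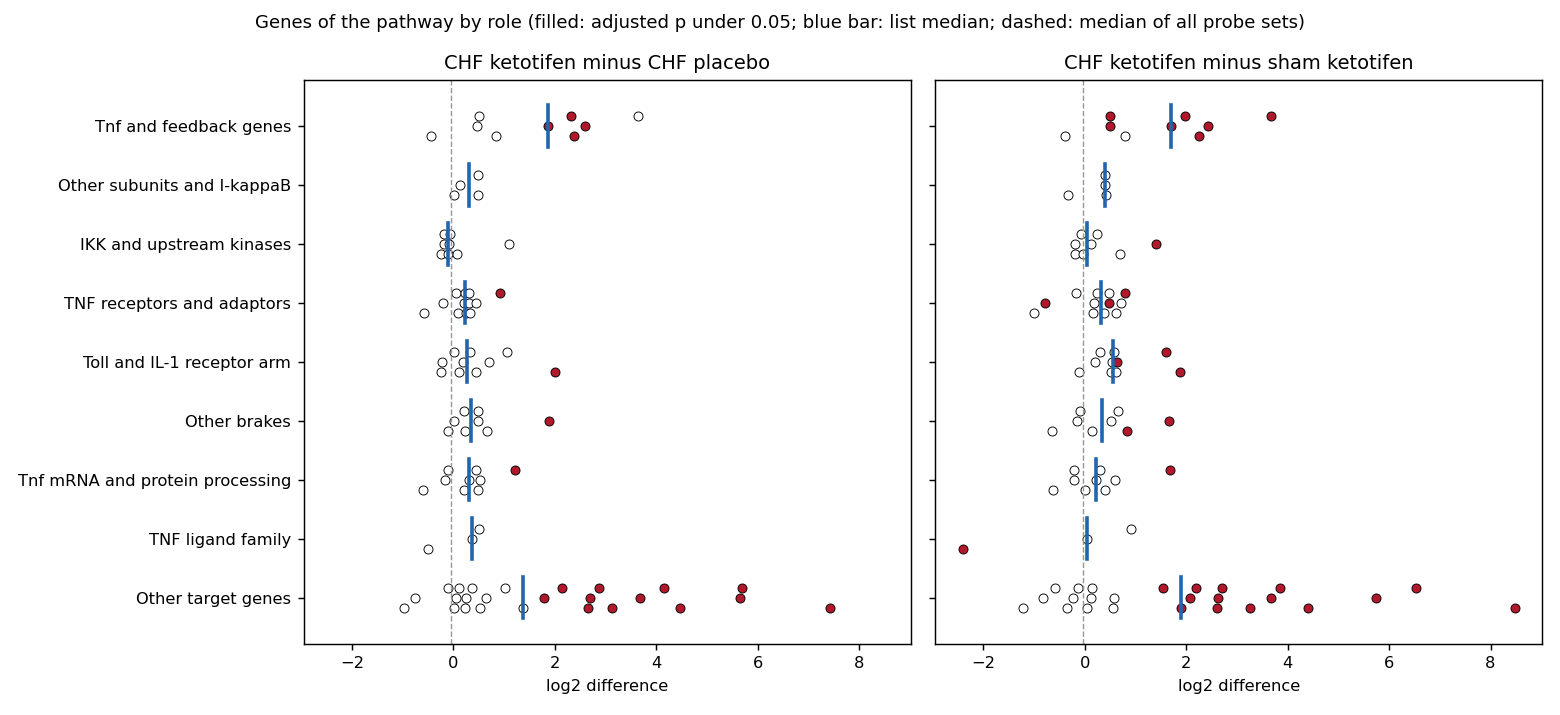
Log2 differences of tested genes, 1 point per gene, by role in the pathway, for CHF ketotifen minus CHF placebo lungs (left) and CHF ketotifen minus sham ketotifen lungs (right); filled points have an adjusted p under 0.05, blue bars are list medians and the dashed line is the median of all tested probe sets. The medians of the 9 genes (1.87 and 1.70) and of other target genes (1.37 and 1.89) lie right of the other 7 lists.

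Markers of other cell types also differed between the groups, and their part in the results was not tested. The mean log2 value of 8 macrophage markers on the array, of 10 listed, was 8.49 to 9.02 in CHF ketotifen lungs, 7.72 to 8.58 in CHF placebo lungs, 6.98 to 7.30 in sham ketotifen lungs and 5.84 to 7.40 in sham placebo lungs. Of these 8 markers 5 were called higher in CHF ketotifen over sham ketotifen lungs, and 0 over CHF placebo lungs. The shares of all tested probe sets called higher were 6.36% and 0.822%. All 6 CHF lungs were above all 6 sham lungs in this mean, and CHF ketotifen and CHF placebo lungs overlapped.

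The mean of 8 neutrophil markers, of 9 listed, was 5.72 to 6.71 in CHF ketotifen lungs, 4.75 to 5.73 in CHF placebo lungs, 5.20 to 5.63 in sham ketotifen lungs and 4.19 to 5.10 in sham placebo lungs. Of 5 tested, 1 was called over CHF placebo lungs, against 0.822% of all tested probe sets called higher. It was Il1r2, the decoy interleukin-1 receptor (2.62 ± 0.26, adjusted p = 0.000517). Il1r2 lay near background in the 9 other lungs and passed the filter through the CHF ketotifen lungs alone, so it had to differ and the size of its difference is uncertain. S100a8 and S100a9 differed by 2.40 ± 0.77 and 1.97 ± 0.69 (adjusted p = 0.152 and 0.181). Csf3r and Fcgr3a differed from CHF placebo lungs by 0.16 ± 0.70 and 0.40 ± 0.56 (adjusted p = 0.940 and 0.760). Against sham ketotifen lungs Csf3r differed by -0.79 ± 0.70 (adjusted p = 0.467). The defining neutrophil markers Cxcr2 and Np4 were under 4 on all 12 arrays and Mmp8 on 11. CHF ketotifen lung 2, the highest of its group for 7 of the 9 genes, had the lowest macrophage mean (8.49) and the lowest neutrophil mean (5.72) of its group.

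The mean of 9 mast cell markers, the cells that ketotifen is given to stabilize, was 5.26 to 6.31 in CHF ketotifen lungs, 5.61 to 6.97 in CHF placebo lungs, 5.20 to 5.52 in sham ketotifen lungs and 4.38 to 5.03 in sham placebo lungs. In sham placebo lungs 4 to 7 of the 9 were under 4. CHF ketotifen and CHF placebo lungs overlapped, and 0 of 8 tested mast cell markers were called between them, with a median difference of -0.46. Over all tested probe sets 1.22% were called in that comparison. Against sham ketotifen lungs Cma1 (2.99 ± 0.48, limma adjusted p = 0.00579) and Fcer1a (1.21 ± 0.36, adjusted p = 0.0493) were higher and Gata2 (-1.90 ± 0.38, adjusted p = 0.0136) lower. The other tested mast cell markers were not called there, where 13.0% of all tested probe sets were called. In CHF placebo over sham placebo lungs Cpa3, Fcer1a and Cma1 were called higher, against 0.145%. Mast cell genes were named after their values were seen. T cell markers averaged 3.84 to 4.14 in CHF ketotifen lungs and 3.85 to 4.21 in CHF placebo lungs. They averaged 4.01 to 5.05 in sham ketotifen and 3.59 to 3.99 in sham placebo lungs. Of the 6 T cell markers on the array 3 to 4 were under 4 in each CHF lung. B cell markers averaged 4.76 to 4.95 in CHF ketotifen lungs and 4.83 to 5.19 in CHF placebo lungs. They averaged 4.80 to 7.0 in sham ketotifen lungs and 3.84 to 4.75 in sham placebo lungs. Of the 4 B cell markers on the array 2 to 3 were under 4 in each CHF lung. Among them Fcrla was called in CHF placebo over sham placebo lungs (2.93 ± 0.41, adjusted p = 0.0241), in sham ketotifen over sham placebo lungs (2.94 ± 0.41, adjusted p = 0.0276) and in the interaction (-3.70 ± 0.57, adjusted p = 0.0241). Sham placebo lungs were thus the low group for Fcrla, and its calls do not include CHF ketotifen against CHF placebo lungs. In the same comparisons with sham placebo lungs Ms4a1 differed by 0.34 ± 0.86 and 1.16 ± 0.86 (adjusted p = 0.862 and 0.571). Cr2 went the other way, by -0.77 ± 0.53 and -0.26 ± 0.53 (adjusted p = 0.437 and 0.862).

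Red cell markers, 3 on the array of 4 listed, averaged 6.80 to 7.09 in CHF ketotifen lungs, 6.36 to 9.06 in CHF placebo lungs, 5.02 to 5.93 in sham ketotifen lungs and 4.33 to 5.04 in sham placebo lungs. The globin gene Hbb was higher in CHF ketotifen than in sham ketotifen lungs (2.59 ± 0.64, adjusted p = 0.027) and in CHF placebo than in sham placebo lungs (5.34 ± 0.64, adjusted p = 0.0144). Between CHF ketotifen and CHF placebo lungs Hbb differed by -0.91 ± 0.64 (adjusted p = 0.498). Ciliated cell markers, 5 on the array of 9 listed, averaged 4.13 to 4.32 in CHF ketotifen lungs, 3.62 to 4.80 in CHF placebo lungs, 4.93 to 5.37 in sham ketotifen lungs and 4.49 to 8.42 in sham placebo lungs, and 0 were called in any comparison. Fcrla and Hbb were named after their values were seen

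**Figure D5:**
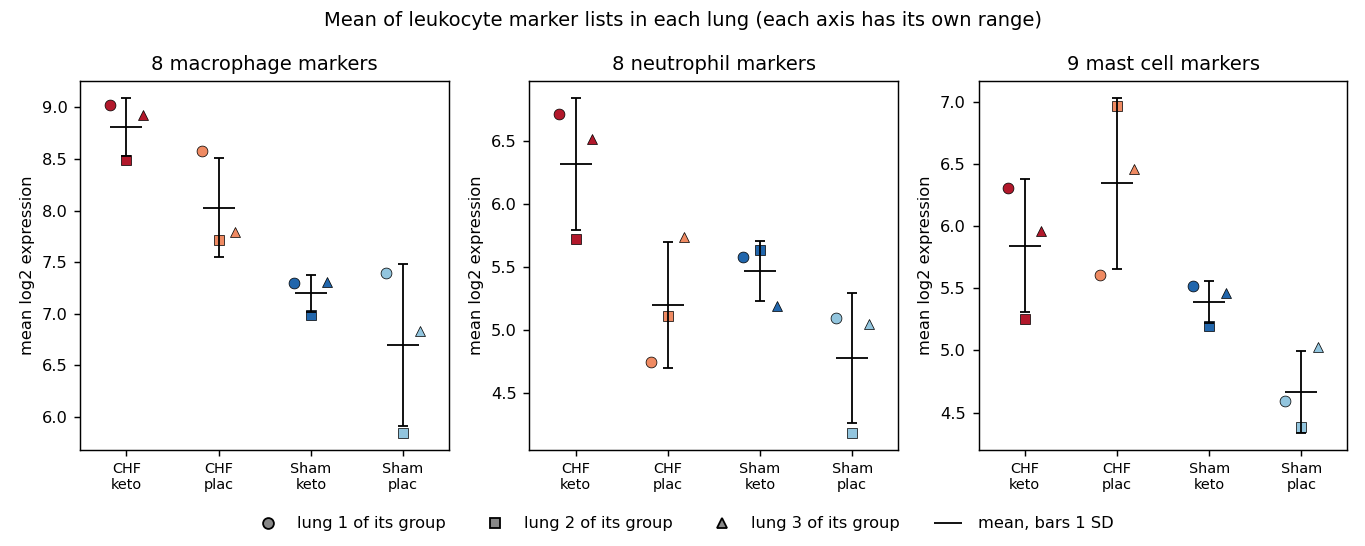
Mean log2 expression of macrophage, neutrophil and mast cell marker genes in each lung (markers, by lung number within its group), with group means and SDs (n = 3). CHF ketotifen lungs have the highest group means of macrophage and neutrophil markers, and CHF placebo lungs the highest of mast cell markers.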

How the data were processed

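RNA of 12 rat lungs, 3 per group by the source names in the labels, was measured on arrays. The authors deposited log2 values, and the submitters' processing notes name GCRMA and R 2.5.0. Other settings of that step were not given. The 57 control probe sets were left out, and gene symbols came from the platform annotation (20826 probe sets with 1 symbol, 436 with several, 9780 with none); for 13 of 13 probe sets of the 9 genes the Entrez identifier gave the same symbol in RefSeq.

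Probe sets with a log2 value of at least 4 in at least 3 of 12 arrays entered limma 3.58.1 (R 4.3.3) as 1 fit of 4 group means with eBayes and an intensity trend (two-sided; residual degrees of freedom 8, moderated to a median of 10.95). Errors with a difference are SE of the fit, errors with a mean are SD. A gene with several tested probe sets is represented by the brightest. In the search for nearest profiles a neighbour gene was represented by its closest tested probe set with 1 symbol. Named genes were the 9, up to 4 called genes of smallest p from each pathway list (2 where none was called, as values) and the 3 nearest profiles of each gene called at least once. The 9 genes, the 8 pathway lists and the 9 marker lists were chosen with earlier results of these data known. Alternatives were the filter, the trend, the scaling, a replicate block, the groups in the fit, the near-identical arrays, the 3 arrays of larger 3′ to 5′ difference and each lung left out. The fit was tested on simulated data with known changes. Promoters were read from the RefSeq table, build GRCr8, and no genome was used. Figures were drawn with matplotlib 3.10.9.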

Additional observations from a re-analysis of the deposited data

Results flagged for a closer look

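The effect of ketotifen differed between CHF and sham lungs, by the interaction term of the limma fit over 16536 probe sets, for Nfkbiz (1.78 ± 0.24 on the log2 scale, adjusted p = 0.00964) and Bcl3 (2.34 ± 0.30, adjusted p = 0.00763). All 3 CHF ketotifen lungs lay above all 3 CHF placebo lungs for both genes, while sham ketotifen and sham placebo lungs overlapped. Both calls were lost without the 3 sham arrays of larger 3′ to 5′ signal difference: the differences were then 1.64 and 2.39 and the adjusted p 0.141 and 0.150.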

How the results depend on the processing

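With 3 lungs per group, differences near the threshold are not settled. The direction of 0 called results was reversed. Tnfaip3, Nfkbiz, Bcl3 and Birc3 were called in CHF ketotifen against CHF placebo lungs, and in CHF ketotifen against sham ketotifen lungs, under all 22 alternatives of each, 1 of them added after seeing the data (CHF ketotifen arrays 1 and 3 averaged and CHF placebo array 1 left out). The count of 4 of 9 genes over CHF placebo lungs was 4 or 5 throughout.

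The count of 7 over sham ketotifen lungs was 4 with no filter, 4 with only the 2 groups in the fit and 4 without the 3 arrays of larger 3′ to 5′ difference, and 4 to 7 with 1 lung left out. It was 4 without any 1 of sham ketotifen lungs 1, 2 and 3 or without CHF ketotifen lung 1. Nfkb1 lost its call in 18 of 22 alternatives, Nfkb2 in 17 of 22 and Tnf in 7 of 21. With no filter more probe sets were tested; for the others the cause was not tested. The count of 2 in the interaction was 0 without the 3 arrays of larger 3′ to 5′ difference, where fewer arrays entered the fit, and 2 or 3 with 1 lung left out. CHF placebo against sham placebo and sham ketotifen against sham placebo lungs gave 0 under all alternatives run. Tnf and Relb gave no value under the stricter filter (log2 value of at least 5), and the fit of only the compared groups was not run for the interaction.

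The numbers in the labels did not pair the lungs: deviations from the group means correlated at -0.35 to 0.26 between lungs of the same number and -0.39 to 0.32 between others. With the number as a replicate block the counts were 4 over CHF placebo lungs, 5 over sham ketotifen lungs (Nfkb1 and Nfkb2 lost), 2 in the interaction and 0 in the remaining comparisons.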
